A study of Rattus norvegicus with 4 samples.

Results

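The miRNAs described here come from the cluster of miR-532, miR-188, miR-362, miR-501, miR-500 and miR-660, which is hosted by the chloride channel gene Clcn5 on the X chromosome. The members were chosen by name, as 9 mature arms of these hairpins, and 8 of the 9 were matched among the 765 rat mature miRNAs of the deposited table. They were rno-miR-532-5p, rno-miR-532-3p, rno-miR-362-5p, rno-miR-362-3p, rno-miR-500-3p, rno-miR-501-5p, rno-miR-501-3p and rno-miR-188-5p, written below without the rat prefix. The remaining arm, rno-miR-660-5p, was not analysed here. Small RNA was sequenced from normoxic and hypoxic cultures of H9c2, as cells and as the exosomes they released, which gave 4 libraries. H9c2 is an established cardiomyoblast line from rat heart, and in all 4 conditions the cells were kept for 48 h in medium whose serum had been depleted of exosomes. Hypoxia was made in a chamber with an oxygen-absorbing pack, and exosomes were pelleted from the conditioned medium by ultracentrifugation. Each condition was 1 library, so differences between conditions could not be tested against replicate spread.

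Mature miRNAs are cut from hairpin precursors, which can yield a miRNA from the 5′ side (5p) and from the 3′ side (3p). Bases 2 to 8 of the mature miRNA, the seed, pair with target mRNAs. Hairpins that lie close together in one host gene can be cut from the same primary transcript, so their miRNAs often vary together. Clcn5 encodes an exchanger of chloride and protons in endosomes and is best known from the kidney tubule. In the RefSeq annotation of GRCr8, Mir532, Mir188, Mir362, Mir501 and Mir500 lie in this order within Clcn5. The hairpin of miR-3560 lies on the opposite strand across Mir501. The processing notes of the submitters name Rnor 6.0, so coordinates of GRCr8 are not given.

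RefSeq held the mature sequences of 7 of the 9 members, which are shown to compare seeds, with the seed in capitals. miR-362-5p and miR-660-5p are named only.
miR-532-5p: cAUGCCUUgaguguaggacugu
miR-532-3p: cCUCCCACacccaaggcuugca
miR-188-5p: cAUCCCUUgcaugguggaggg
miR-362-3p: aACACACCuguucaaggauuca
miR-501-5p: aAUCCUUUgucccuggguga
miR-501-3p: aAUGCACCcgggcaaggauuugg
miR-500-3p: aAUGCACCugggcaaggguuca
miR-500-3p and miR-501-3p share the seed AUGCACC and had 18 identical bases of 22 from the 5′ end, so that short or trimmed reads may not separate them. The other printed seeds were different from each other. Outside the cluster, the seed of miR-532-5p was also that of miR-511-5p, and the seed of miR-362-3p that of miR-329-3p. Both of these relatives were listed at 0 in all 4 libraries.

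The authors deposited RPM, read numbers on a common scale set for each library. Every value was a whole multiple of 1 step per library (within 0.1 step), and the smallest value above 0 was 10 steps. A step was therefore taken as 1 read, and a miRNA listed at 0 as one with fewer than 10 reads. The scale stood for 10404866 to 13285239 reads per library. Of these reads, miRNAs took 51.0% in the normoxic and 26.9% in the hypoxic library of cells, but 0.115% and 0.881% in normoxic and hypoxic exosomes. A ratio of RPM between conditions contains this change of the miRNA share, and ratios scaled to the miRNA total are therefore given beside it. Intervals are exact 95% (Clopper-Pearson) intervals from the reads. PCR copies of one molecule count as separate reads, so the intervals describe counting error alone. Of 7 muscle and heart miRNAs, 3 were listed in normoxic cells and 2 in hypoxic cells, with miR-499-5p the highest at 26.6 and 12.7 RPM. miR-206-3p had 3.27 RPM in normoxic and 1.51 RPM in hypoxic cells, and was listed at 0 in exosomes. miR-1-3p had 2.31 RPM (24 reads) in normoxic cells and 0.843 RPM (10 reads) in normoxic exosomes. It was listed at 0 in both hypoxic libraries. The list's miR-133a-3p, miR-133b-3p, miR-208a-3p and miR-208b-3p were listed at 0 in every library.

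Within the cells, the cluster was in the main miR-532-5p. This miRNA, reported in mouse heart as protective after infarction, had 1020 RPM (95% interval 1000.2 to 1039) in normoxic cells and 481 RPM (469 to 493) in hypoxic cells. It ranked 47th of 338 listed miRNAs in normoxic cells and 58th of 331 in hypoxic cells. miR-362-5p, known in human liver cancer cells to target the deubiquitinase CYLD, followed, at 99.2 RPM in normoxic and 38.0 RPM in hypoxic cells. The other arm of miR-532, miR-532-3p, had 34.9 and 19.3 RPM. miR-362-3p had 25.5 and 17.8 RPM. At the low end stood miR-188-5p, known in mouse bone marrow for steering stromal cells between bone and fat, with 6.05 RPM (63 reads) and 2.63 RPM (35 reads). miR-500-3p had 3.08 RPM (32 reads) in normoxia and 3.54 RPM (47 reads) in hypoxia. Both arms of miR-501 were listed at 0 in every library, as were the opposite arms miR-188-3p and miR-500-5p. In normoxic cells the counting intervals of all 6 listed members were apart from each other. In hypoxic cells those of miR-532-3p and miR-362-3p overlapped, and so did those of miR-500-3p and miR-188-5p. Adaptor ligation favours some sequences over others, so levels of different miRNAs are compared only roughly.

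**Figure D1:**
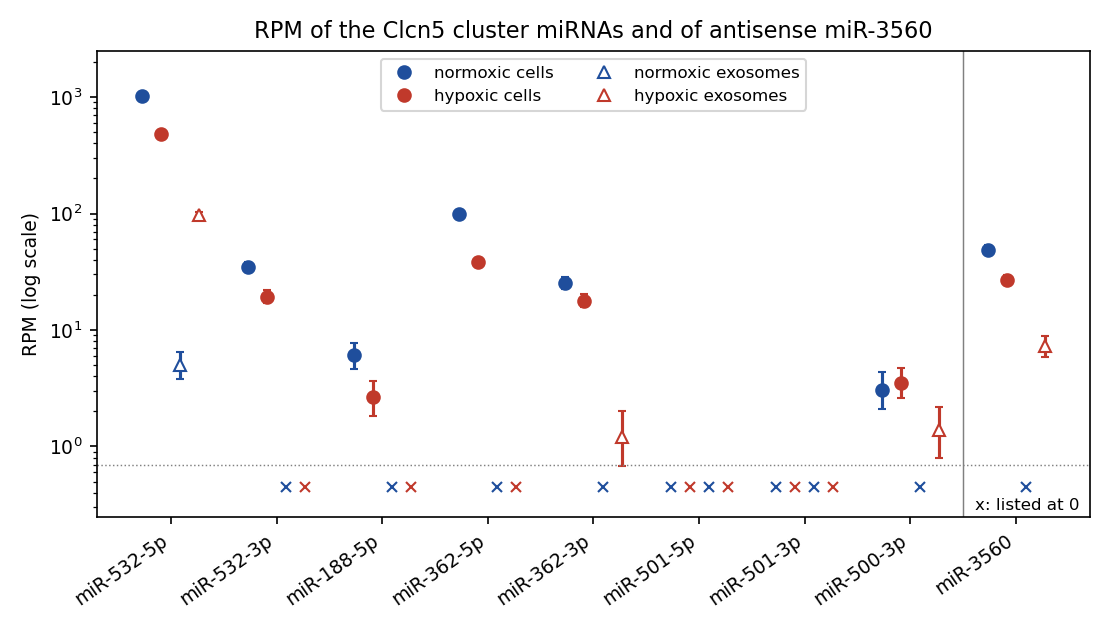
RPM (log axis) of each cluster miRNA, in genome order, and of miR-3560, in the 4 libraries. Points are single libraries, bars are exact 95% counting intervals, and crosses under the dotted line mark values listed at 0. miR-532-5p was the highest member in every library, and the only one above 0 in normoxic exosomes.

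Hypoxic cells had lower RPM than normoxic cells for 5 of the 6 listed members, against 86.7% of all 316 miRNAs listed in both libraries. The study calls miRNAs differentially expressed at a ratio of hypoxia to normoxia below 0.5 or above 2. Of the 6 members 3 were below 0.5, which was 27.8% of all 316. The median ratio was 0.513 for the members and 0.612 for all miRNAs. The share below 0.5 rests on so few members that nothing particular to the cluster can be read from it.

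The 3 members below 0.5 were all 5p arms. miR-362-5p had the lowest ratio, 0.383 (95% interval 0.344 to 0.427), and 37 of the 316 miRNAs were lower. For miR-188-5p the ratio was 0.435 (0.279 to 0.668). For miR-532-5p it was 0.472 (0.457 to 0.487). The interval lay wholly below 0.5 for miR-362-5p and miR-532-5p, but not for miR-188-5p, which had few reads. The 3p arms had higher ratios, but the intervals of miR-532-3p and miR-362-3p overlapped that of miR-188-5p. The ratio of miR-532-3p, reported in cardiomyocytes to repress the apoptosis inhibitor ARC, was 0.554 (0.471 to 0.652). miR-362-3p had a ratio of 0.700 (0.585 to 0.838). miR-500-3p had 1.15 (0.719 to 1.86), the only member whose ratio was above 1, and its interval spanned 1.

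Scaled to the miRNA total, 0 of the 6 members were below 0.5, against 3.8% of all miRNAs, and 1 was above 2, against 11.7%. That member was miR-500-3p, with 2.18 (1.36 to 3.53), and under the other scalings it was below 2, at 1.88 to 1.91. On this scale miR-532-5p had 0.894 (0.867 to 0.922) and miR-362-5p 0.726 (0.652 to 0.809), while miR-532-3p had 1.05 (0.892 to 1.24) and miR-362-3p 1.33 (1.11 to 1.59). The direction of miR-362-3p therefore depended on the scale. For miR-532-3p, below 1 on RPM, the interval on the miRNA total spanned 1. miR-532-5p, miR-362-5p and miR-188-5p were below 1 on both scales. The interval of miR-188-5p on the miRNA total, 0.824 (0.529 to 1.27), spanned 1. The order of the members does not depend on the scale, and the median over all 316 miRNAs was 1.16 on the miRNA total.

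**Figure D2:**
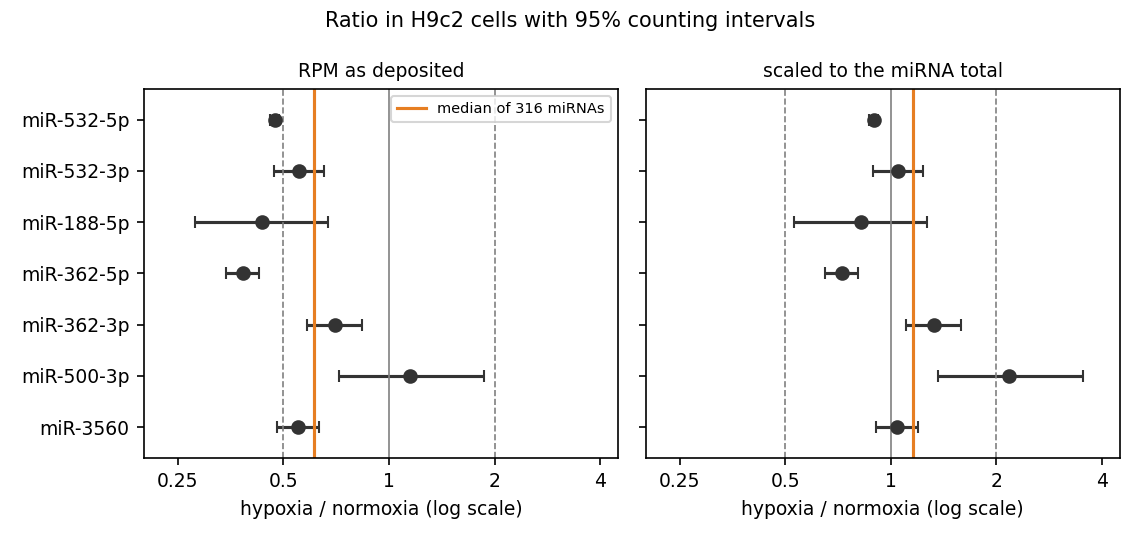
Ratio of hypoxic to normoxic cells (log axis), from RPM on the left and relative to the miRNA total on the right, for the 6 listed members and miR-3560, with exact 95% counting intervals, 1 library per condition. The solid grey line marks 1, dashed lines mark 0.5 and 2, and the orange line marks the median of all 316 miRNAs (0.612 and 1.16). miR-362-5p lies lowest and miR-500-3p highest on both.

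Quantities within the cluster do not depend on the RPM scale. The cluster had 12363 reads in the normoxic and 7473 reads in the hypoxic library of cells, which was 0.233% and 0.209% of the miRNA reads. miR-532-5p held 85.8% of the cluster's reads in normoxia (95% interval 85.2% to 86.4%) and 85.5% in hypoxia (84.7% to 86.3%), with overlapping intervals. The share of miR-362-5p was 8.35% (7.87% to 8.85%) in normoxia and 6.76% (6.20% to 7.35%) in hypoxia. That of miR-362-3p was 2.14% (1.90% to 2.41%) in normoxia and 3.17% (2.79% to 3.59%) in hypoxia. For both arms of miR-362 the intervals of the conditions were apart. The same held for miR-500-3p, with 0.259% (0.177% to 0.365%) and 0.629% (0.462% to 0.835%). The intervals of miR-532-3p, with 2.94% (2.65% to 3.25%) and 3.44% (3.04% to 3.88%), overlapped, as did those of miR-188-5p, with 0.510% and 0.468%. Whether the shifts exceed the spread between cultures cannot be told from 1 library per condition.

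Both arms of a hairpin come from one precursor, and their ratio is also free of the scale. For miR-532 the 5p arm had 29.2 reads per 3p read in normoxic cells (95% interval 26.3 to 32.5) and 24.9 in hypoxic cells (22.0 to 28.3). The ratio of hypoxia to normoxia was 0.851 (0.721 to 1.01, exact conditional interval). For miR-362 the 5p arm had 3.89 reads per 3p read in normoxia (3.40 to 4.47) and 2.13 in hypoxia (1.82 to 2.50). This was a change to 0.547 (0.443 to 0.676), and 79.6% of the reads of miR-362 came from the 5p arm in normoxia and 68.1% in hypoxia. Among 86 hairpins with both arms listed in both libraries, 9 (10.5%) changed by more than 2-fold in either direction, and neither miR-532 nor miR-362 did. The median change of these hairpins was 1.36-fold in either direction, and miR-362 was 12th from the lowest. In 51 of the 86 the 5p to 3p ratio was lower in hypoxia, as it was for miR-532 and miR-362. For miR-501, with both arms listed at 0, no arm ratio could be formed.

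**Figure D3:**
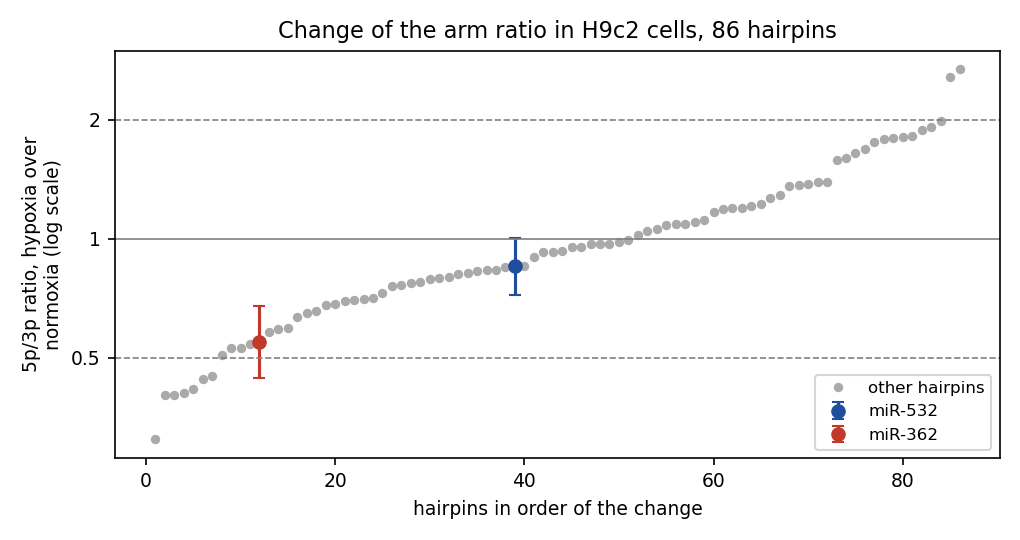
Change of the 5p to 3p ratio (hypoxic over normoxic cells, log axis) for 86 hairpins in order of the change, with miR-532 and miR-362 in colour with exact 95% conditional intervals. Dashed lines mark 0.5 and 2. miR-532 (0.851) lies in the middle of the hairpins and miR-362 (0.547) near the low end.

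The values of 0 at miR-501 stood opposite reads on the other strand. miR-3560 was not among the members and was added after its values had been seen. Its sequence is shown here to compare it with that of miR-501-3p above.
miR-3560: cAAAUCCUugcccgggugcauu
Read backwards and complemented, all 22 bases of miR-3560 were contained in miR-501-3p, and 18 of them matched miR-500-3p. miR-3560 had 48.9 RPM (509 reads) in normoxic cells, 26.9 RPM (357 reads) in hypoxic cells and 7.29 RPM (90 reads) in hypoxic exosomes, and was listed at 0 in normoxic exosomes. Its ratio in cells, 0.549 (0.478 to 0.630), was near that of miR-532-3p, and on the miRNA total it was 1.04 (0.907 to 1.19). Whether the counting used strand is not given in the sources used here, so reads of miR-501-3p and of miR-3560 cannot be told apart in these values. A value of 0 for miR-501-3p therefore does not show that this arm was absent.

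In exosomes miR-532-5p was the one member listed in both conditions. It had 4.97 RPM (59 reads, 95% interval 3.78 to 6.41 RPM) in normoxic exosomes and 97.9 RPM (1209 reads, 92.4 to 104) in hypoxic exosomes. It was thus the 22nd of 74 listed miRNAs in normoxia and the 17th of 144 in hypoxia. The ratio of 19.7 (15.2 to 26.0) was the 7th highest of 73. Above a ratio of 2 were 84.9% of these 73 miRNAs, whose median ratio was 6.73. Scaled to the miRNA total, miR-532-5p had a ratio of 2.56 (1.97 to 3.38), and 13.7% of the 73 were above 2. Its share of the miRNA reads was 0.434% in normoxic and 1.11% in hypoxic exosomes. In random subsets of the hypoxic library with 13598 miRNA reads, as many as in the normoxic one, miR-532-5p kept 119 to 176 reads in 100 draws, compared with 59 in normoxia. Such subsets keep its share of the miRNA reads on average, so they repeat the ratio on the miRNA total. The 59 normoxic reads were held fixed. For comparison, miR-210-3p, the best known miRNA of the hypoxia response, had ratios of 7.78 in exosomes and 1.48 in cells. On the miRNA total these were 1.01 and 2.80.

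Of the other members, 2 were listed in hypoxic exosomes and none in normoxic exosomes. miR-500-3p had 1.38 RPM from 17 reads, and miR-362-3p 1.21 RPM from 15 reads. In the random subsets of equal miRNA reads neither reached 10 reads. With 17 and 15 reads before thinning from 108860 to 13598 miRNA reads, this outcome was fixed in advance. It does not tell why they were listed in hypoxia alone. miR-532-3p, miR-362-5p and miR-188-5p were listed at 0, below 0.843 RPM in normoxic and 0.809 RPM in hypoxic exosomes. Some miRNAs of blood, liver and endothelium were also listed in exosomes. miR-486, taken here as a miRNA of red blood cells, had 3.54 RPM in normoxic and 18.1 RPM in hypoxic exosomes. The liver miRNA miR-122-5p had 11.1 and 15.1 RPM, and the endothelial miR-126a-3p had 1.94 and 1.62 RPM. In normoxic and hypoxic cells miR-486 had 1.54 and 1.13 RPM, miR-122-5p 14.9 and 5.72 RPM, and miR-126a-3p 134 and 78.4 RPM. On the miRNA total the exosome ratios of hypoxia to normoxia were 0.663, 0.177 and 0.109, in this order. Of a list of 7 such miRNAs, 3 were listed in normoxic exosomes and 4 in hypoxic exosomes, with summed levels of 16.6 and 36.3 RPM, a ratio of 2.19 on RPM and 0.285 on the miRNA total. The list's miR-451-5p was listed at 0 in normoxic and had 1.54 RPM (19 reads) in hypoxic exosomes. In cells it had 1.25 RPM (13 reads) in normoxia and was listed at 0 in hypoxia. miR-126a-5p had 11.3 RPM in normoxic and 9.26 RPM in hypoxic cells, and was listed at 0 in exosomes. The list's miR-144-3p and miR-223-3p were at 0 in every library. The part of such sources in the values of miR-532-5p was not tested.

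Set against the cells of the same condition, miR-532-5p in hypoxic exosomes was lower on RPM and higher as a share of the miRNA reads. Its RPM was 0.203 (95% interval 0.191 to 0.216) of that in hypoxic cells, where the median over 138 miRNAs listed in both was 0.0493. By this ratio miR-532-5p ranked 100th of the 138 from the lowest. Of the miRNA reads, it held 0.179% in hypoxic cells and 1.11% in hypoxic exosomes, a ratio of 6.22 (5.84 to 6.61). Of the 138 miRNAs 44.9% had a ratio above 2 on this scale. In normoxia the ratio of the shares was 2.17 (1.65 to 2.80), and 42.5% of 73 miRNAs were above 2. The direction in normoxia depended on the scale, since the ratio was 0.707 when scaled by the trimmed mean of M values. In hypoxia it was above 1 under each scaling that was tried relative to other miRNAs.

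The members did not share one exosome to cell ratio in hypoxia. Only members listed in both libraries have a ratio. miR-500-3p had the highest, 0.389 (0.209 to 0.690), and its interval overlapped that of miR-532-5p. At the median ratio of all listed miRNAs, miR-500-3p would have given 2.15 reads. It could thus pass the minimum of 10 reads only at a ratio well above the median. miR-362-3p had 0.0681 (0.0375 to 0.115), below miR-532-5p with intervals apart. Its interval held the median ratio, at which it would have given 10.9 reads, close to the 10 needed. At the ratio of miR-532-5p, the level of miR-362-5p in hypoxic cells would have given 95.5 reads in the hypoxic exosome library, and fewer than 10 were found. At the median ratio of all listed miRNAs it would have given 23.1 reads. Of 132 other miRNAs with at least the RPM of miR-362-5p in hypoxic cells, 37 (28.0%) were likewise listed at 0 in hypoxic exosomes. miR-532-3p would have given 48.6 reads at the ratio of miR-532-5p but 11.8 at the median ratio, close to the 10 needed, and was also listed at 0. So were 54 (34.6%) of 156 other miRNAs with at least its RPM in hypoxic cells.

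**Figure D4:**
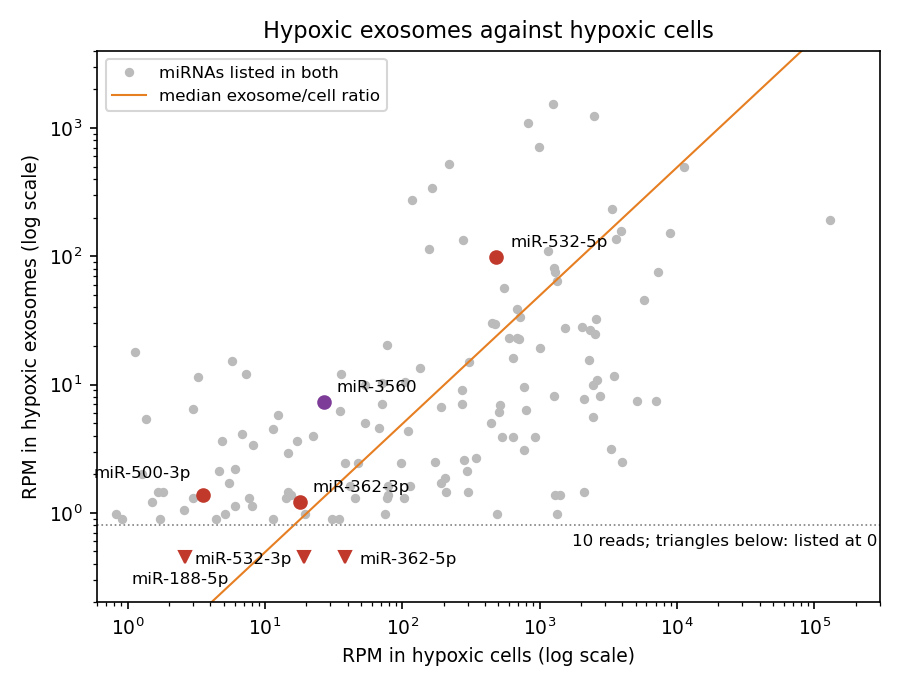
RPM in hypoxic cells (x, log axis) against hypoxic exosomes (y, log axis) for 138 miRNAs listed in both, 1 library each. Cluster members are in red, miR-3560 in purple, and triangles mark members listed at 0 in exosomes. The orange line is the median ratio, 0.0493, and miR-532-5p (0.203), miR-500-3p (0.389) and miR-362-3p (0.0681) lie above it.

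The arms of both hairpins were also unevenly found in hypoxic exosomes. miR-532-5p had 1209 reads there and miR-532-3p at most 9, so that the 5p arm had at least 134 reads per 3p read, where hypoxic cells had 24.9. For miR-362 the order of the reads was the reverse of that in cells. The upper limit given next still leaves room for the 5p arm to lead. miR-362-3p had 15 reads and miR-362-5p at most 9, at most 37.5% of the reads from the 5p arm (upper 95% limit 59.4%), against 68.1% (64.6% to 71.4%) in hypoxic cells. Among 16 hairpins with both arms listed in hypoxic cells and exosomes, 14 (87.5%) differed by more than 2-fold, with a median of 8.14-fold. These 16 had to list both arms in exosomes, which miR-532 and miR-362 did not, so they are not a matched background. Whether the uneven arms are particular to this cluster cannot be told from them.

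Over the 4 libraries, the miRNAs with the pattern most like that of miR-532-5p were miR-1839-5p, miR-147, miR-140-3p, miR-214-3p and miR-24-3p. Likeness was the Euclidean distance of log2 RPM, after the mean of each miRNA had been subtracted, among 71 miRNAs listed in all 4 libraries. The distance to miR-1839-5p was 0.76 and that to miR-24-3p 1.20, with a median of 3.31 over all others. miR-140-3p, known from cartilage, was the nearest of these 5 in cells, with a ratio of 0.494, and had 12.6 in exosomes. With 4 points for each miRNA, this is a description.

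Another cluster of the X chromosome, of miR-322, miR-503, miR-351, miR-542 and miR-450, had other ratios. In cells its 12 listed miRNAs had a median ratio of 1.46, against 0.513 for the 6 members here, and the ranges of 0.558 to 3.20 and 0.383 to 1.15 overlapped. In hypoxia 5 of its miRNAs were also listed in exosomes, with a median exosome to cell ratio of 0.00776, compared with 0.203 for the 3 members here. The ranges, 0.00107 to 0.358 and 0.0681 to 0.389, overlapped, and 2 of the 3 members rest on 15 and 17 reads. Both medians leave out miRNAs listed at 0 in exosomes, here miR-532-3p, miR-362-5p and miR-188-5p, and the remaining miRNAs of the other cluster. A miRNA low in cells reaches 10 exosome reads only at a high ratio, so the medians also depend on levels in cells. In hypoxic cells miR-500-3p had 3.54 RPM and miR-362-3p 17.8 RPM. In the other cluster miR-351-5p, miR-450a-5p, miR-542-3p and miR-322-3p had 2637, 1284, 800 and 344 RPM, and miR-351-3p 6.10 RPM. The difference was not tested, as each condition was 1 library.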

How the data were processed

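Small RNA of 18 to 30 nucleotides from 4 libraries was sequenced by the authors on an Illumina platform. The deposited values are RPM for 765 rat mature miRNAs. The submitters' processing notes name Rnor 6.0, while aligner, counter, strand setting and the reads behind the scale were not stated there or in the methods. Reads were recovered as RPM divided by the step of each library (100% within 0.1 of a whole number), and no count model was fitted with 1 library per condition. Intervals are Clopper-Pearson, or exact conditional for arm ratios, and the recovery and intervals were tested on simulated data. The members and lists were chosen with earlier results of these data known. The named miRNAs were all members, other arms of their hairpins, miRNAs with the same seed, the 5 nearest patterns, another X chromosome cluster and miR-210-3p, and miR-3560 was added later. Alternatives were 4 other scalings, folds of 1.5 and 3, a minimum of 50 reads, thinning, and a pseudocount of 1. Mature sequences are from RefSeq (GRCr8). Computations ran in Python 3.11.15 (scipy 1.17.1, numpy 2.4.6, pandas 2.3.3), and figures were drawn with matplotlib 3.10.9.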

Additional observations from a re-analysis of the deposited data

Results flagged for a closer look

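miR-532-5p moved in opposite directions in cells and exosomes. The ratio of hypoxia to normoxia was 0.472 in cells and 19.7 in exosomes, and on the miRNA total it was 0.894 and 2.56. These opposite directions were not tested, because 1 library stood for each condition. Of 71 miRNAs listed in all 4 libraries, 63 likewise lay below 1 in cells while above 1 in exosomes on RPM, so opposite directions were the rule. With thresholds of 0.5 and 2 there were 13, miR-532-5p among them.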

How the results depend on the processing

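The results in cells depended on the RPM scale. The number of members below 0.5, 3 on RPM, was 0 on the miRNA total, with the median ratio set to 1, by the trimmed mean of M values and on the miRNA total without miR-21-5p, and 0 at a fold of 3. It was 4 at a fold of 1.5, 2 when the whole interval had to pass, 3 with at least 50 reads, and 2 with a pseudocount of 1, which put miR-188-5p at 0.515 (counted after seeing the data). The median ratio of the members was 0.513 on RPM, 0.972 on the miRNA total, 0.838 with a median ratio of 1, 0.842 by the trimmed mean of M values and 0.852 without miR-21-5p. By construction these scalings multiply every ratio by 1 factor. The exosome to cell ratio of miR-532-5p in hypoxia, 0.203 on RPM, was 6.22, 4.13, 3.85 and 3.27 in the same order. In exosomes only 1 member, miR-532-5p, had a ratio, and it was above 2 under each scaling, read minimum and pseudocount. Above 2 were also 84.9% of 73 miRNAs on RPM and 13.7% on the miRNA total. The folds of 1.5 and 3 were passed on RPM, at 19.7. Under the 4 other scalings the ratio was 2.51 to 2.93, below 3. In the 100 thinned draws miR-532-5p had 2.02 to 2.98 times its normoxic reads, which were held fixed. This repeats its ratio on the miRNA total. With at least 50 reads in each arm, 4 of 60 hairpins changed by more than 2-fold in cells, in place of 9 of 86. The hairpins miR-33, miR-98, miR-132, miR-466c and miR-542 dropped out, each with an arm of only 11 to 18 reads. With miR-3560 counted in the cluster, an alternative chosen after seeing the data, miR-532-5p held 82.4% of its reads in normoxic and 81.6% in hypoxic cells. No paired analysis was possible because each condition has 1 library, and no replicate could be left out.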
